A study of Homo sapiens with 36 samples.

Results

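Gene expression in the enzalutamide-resistant prostate cancer line 42D was compared between cells carrying the guide line sgT33-5 and cells of the line NT3, both treated with the synthetic androgen R1881. These are 6 libraries, 3 per group, of the 36 in the series, and they were taken by their labels, with every gene of the deposited table. The remaining libraries hold the same 2 lines of 42D with the solvent DMSO, and LNCaP, the androgen-dependent line from which 42D was derived, as NT3 and 3 sgT33-5 lines, each with R1881 or DMSO. The question, per the series title, is how far androgen receptor output depends on TRIM33. The line names are not expanded in the labels, and the title is the basis for taking sgT33-5 to carry a TRIM33-directed guide and NT3 a non-targeting control guide. All 6 libraries come from 42D cells kept for 3 days in medium with 5% charcoal-stripped serum, which is depleted of hormones, and then given 5 nM R1881 for 6 h. The labels state neither whether a line is 1 clone or a pool, nor whether replicates were separate cultures, so p-values measure the spread between these samples.

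TRIM33 belongs to the TIF1 family of chromatin-associated RING-finger E3 ubiquitin ligases, and it is best known for binding SMAD proteins in TGF-beta signalling. The androgen receptor is a nuclear receptor that binds DNA once it holds androgen, recruits coactivators and raises genes such as KLK3 (prostate-specific antigen), TMPRSS2 and FKBP5. Ubiquitin on histone H2B is set by the RNF20 and RNF40 ligase pair and accompanies transcription elongation.

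The 6 libraries held 15170440 to 16674859 counts each, and levels below are CPM, that is counts scaled to a common library total. Summed CPM of 21 luminal prostate markers was 7850 to 8560 in sgT33-5 and 7920 to 8670 in NT3, and HOXB13, KRT8 and KLK3 were present in every library. The basal keratin KRT5, the neuroendocrine factor INSM1, the T cell gene CD3E and the endothelial cadherin CDH5 had 0 counts in all 6 libraries. Other members of their lists had counts. Summed CPM of 29 neuroendocrine and neural markers was 763 to 808 in sgT33-5 and 818 to 837 in NT3. For 14 basal markers it was 125 to 128 in sgT33-5 and 134 to 145 in NT3. For 10 endothelial markers it was 45.2 to 47.6 in sgT33-5 and 43 to 47.1 in NT3. Summed CPM of 16 leukocyte markers was 1.96 to 2.2 in sgT33-5 and 2.17 to 2.75 in NT3. Mitochondrial genes took 3.64% ± 0.202 of the counts in sgT33-5 and 4.15% ± 0.341 in NT3 (SD, n = 3 each; exact permutation p = 0.2, 2-sided, where 0.1 is the smallest possible).

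TRIM33 (ENSG00000197323, chromosome 1, 114392790 to 114511203 on GRCh38) had 74.9, 74.7 and 73.1 CPM in the sgT33-5 libraries, against 102, 110 and 107 CPM in the NT3 libraries. The groups did not overlap, and transcript remained in every sgT33-5 library. The log2 fold change was -0.52 (SE 0.051; edgeR quasi-likelihood test, adjusted p = 3.38e-06). The other TIF1 family genes did not pass the threshold: TRIM24 had a log2 fold change of 0.10, TRIM28 one of 0.05 and TRIM66 one of -0.27. Of 15 genes tested within 1 Mb of TRIM33, TRIM33 was the gene that passed the threshold. Transcript levels do not measure the protein.

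**Figure D1:**
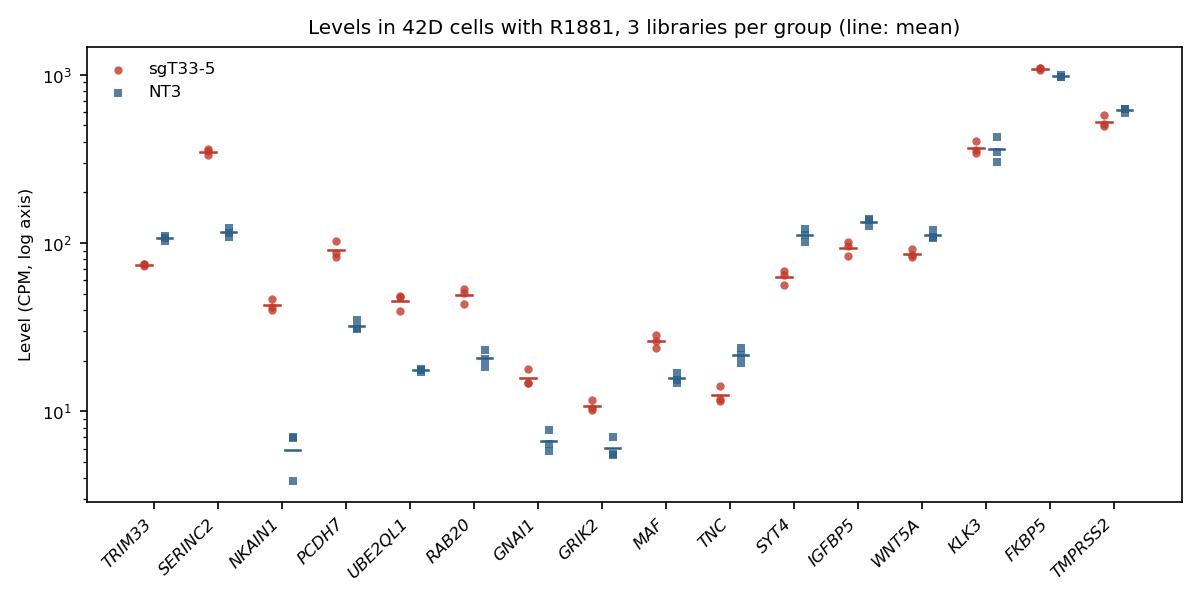
Levels in 42D with R1881 (CPM, log axis) of TRIM33, of called genes and of 3 androgen targets, with 1 point per library (sgT33-5 red circles, NT3 blue squares) and a line at the mean of 3 libraries. NKAIN1 lies at 40.2 to 46.3 CPM in sgT33-5 and at 3.85 to 7.01 CPM in NT3, while the KLK3 points of the groups interleave.

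Of 15403 genes tested, 79 differed between sgT33-5 and NT3 at an adjusted p below 0.05 (0.513%). Of these, 61 were higher in sgT33-5 and 18 lower, and in each of the 79 the 3 libraries of a group lay apart from the 3 of the other. Non-overlap by itself was seen in 14.4% of genes tested. A change of at least 1.5-fold was reached by 24 of the higher and 5 of the lower genes, and one of at least 2-fold by 14 higher genes and 0 lower ones. Protein-coding genes made up 75 of the 79. The median log2 fold change of all genes tested was 0.00. With the replicate number as a block, 331 genes were called (215 higher, 116 lower; 2.15% of those tested), 78 of the 79 among them. Without NT3 replicate 3 the count was 48, and without sgT33-5 replicate 2 it was 43.

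**Figure D2:**
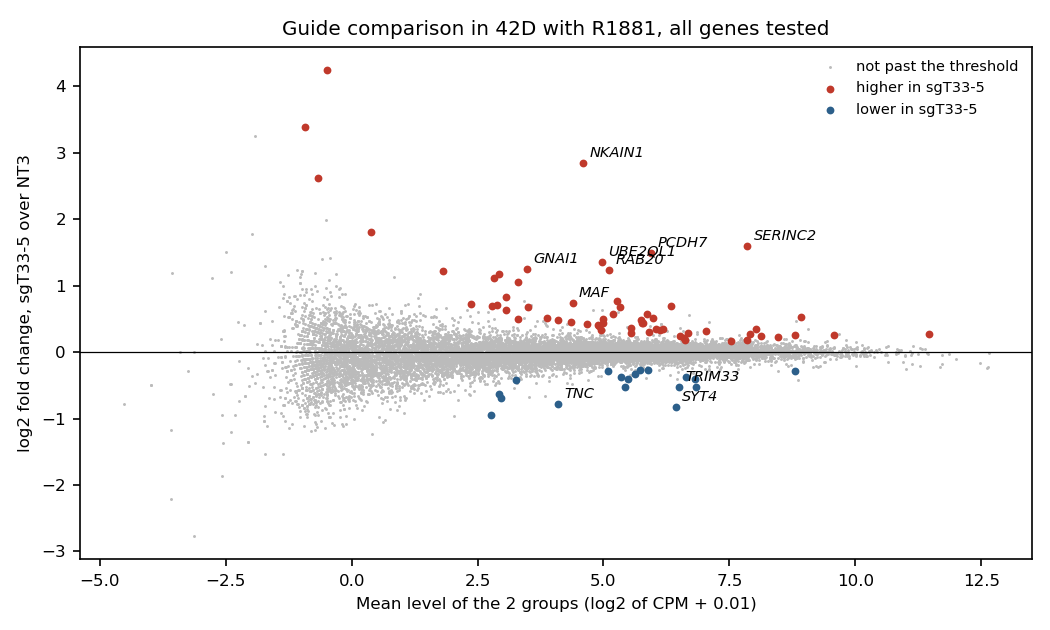
Log2 fold change of sgT33-5 over NT3 (y axis) against the mean level (x axis, log2 of CPM + 0.01) for the 15403 genes tested in 42D with R1881. The 61 genes called higher are red and the 18 called lower blue, and NKAIN1 and SERINC2 stand highest among called genes of at least 5 CPM.

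NKAIN1, a membrane protein that binds the sodium pump, had 40.2, 41.4 and 46.3 CPM in sgT33-5, against 6.9, 7.01 and 3.85 CPM in NT3. Its log2 fold change of 2.85 (SE 0.20, adjusted p = 8.04e-05) was the largest among called genes with a mean of at least 5 CPM. SERINC2, a serine incorporator family membrane protein, had 354, 331 and 360 CPM in sgT33-5, against 123, 115 and 109 CPM in NT3. For both genes every sgT33-5 library lay far above every NT3 library, and the log2 fold change of SERINC2 was 1.59 (SE 0.085, adjusted p = 8.62e-07). PCDH7, a protocadherin of cell adhesion, had 82.6, 87.4 and 102 CPM in sgT33-5 and 31.2, 30.6 and 34.7 CPM in NT3, a log2 fold change of 1.49 (SE 0.13, adjusted p = 0.000559). The small GTPase RAB20 of vesicle traffic had 43.2, 52.9 and 50.2 CPM in sgT33-5 and 20.5, 23 and 18.4 CPM in NT3. Its log2 fold change was 1.24 (SE 0.085, adjusted p = 2.3e-08). UBE2QL1, of the ubiquitin-conjugating enzyme family, had 39.4, 48.1 and 47.9 CPM in sgT33-5 and 17.8, 17.2 and 17.6 CPM in NT3, with a log2 fold change of 1.36 (SE 0.095, adjusted p = 2.3e-08). These 5 calls held in every alternative run.

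Genes of G proteins and of neurotransmitter receptors and synapses were among the 15 highest, which is a description of the genes the naming rule returned and not a tested theme. GNAI1, an inhibitory G protein alpha subunit, had 17.8, 14.8 and 14.8 CPM in sgT33-5, against 5.77, 6.4 and 7.77 CPM in NT3 (log2 fold change 1.25, adjusted p = 2.29e-06). The gamma subunit GNG13 rose by 1.17 on the log2 scale (adjusted p = 8.1e-05) and the glycosyltransferase GALNT17 by 1.06 (7.99e-05). GRIN3A, an NMDA receptor subunit, had 9.73, 7.01 and 12.5 CPM in sgT33-5 and 4.02, 3.81 and 5.59 CPM in NT3 (log2 fold change 1.12, adjusted p = 0.0093). The kainate receptor subunit GRIK2 rose by 0.82 (adjusted p = 0.000662) and the synaptic adhesion protein LRRTM4 by 0.77 (8.1e-05). The transcription factor MAF had 28.5, 26.3 and 23.6 CPM in sgT33-5 and 14.8, 16.9 and 15.3 CPM in NT3 (log2 fold change 0.74, adjusted p = 0.00011). PHLDA1, a pleckstrin-homology protein, rose by 0.73 (adjusted p = 0.0167), the collagen chain COL16A1 by 0.71 (0.00299) and the teneurin TENM1 by 0.69 (0.0319). In each of these genes the groups stood apart, which the naming rule required. The call of GRIN3A ended without NT3 replicate 1 (adjusted p = 0.0669) or 2 (0.0738) and in a fit of the 6 libraries alone (0.0723). That of PHLDA1 ended without NT3 replicate 1 or 3 or sgT33-5 replicate 1 or 3 (0.0627 to 0.106). That of TENM1 ended without any single one of the 6 libraries (0.0707 to 0.146) and under the replicate block (0.0781).

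A stretch of chromosome 1 held a cluster of higher genes. It ran from NKAIN1 to PTP4A2 (31179745 to 31944856 on GRCh38, 765 kb) and took in 11 neighbouring tested genes, 6 of them called. Their fold changes were all positive, with a median of 0.51. The search kept runs of at least 5 neighbouring genes of the same sign with at least 4 called, and ended them where the sign turned. The shared sign, and in part the median, therefore follow from the rule. The called genes were NKAIN1, ZCCHC17, the fatty acid binding protein gene FABP3, SERINC2, COL16A1 and the adhesion receptor gene ADGRB2, of which ZCCHC17, FABP3 and ADGRB2 were named after their values were seen. ADGRB2 had 77.1, 72.1 and 74.3 CPM in sgT33-5, against 53.1, 52.3 and 51.5 CPM in NT3 (log2 fold change 0.51, adjusted p = 3.83e-05). ZCCHC17 had 78.8, 79 and 76.1 CPM in sgT33-5 and 60.1, 63.7 and 61.7 CPM in NT3 (log2 fold change 0.33, adjusted p = 0.00278). FABP3 was scarce, with 1.29, 1.01 and 1.73 CPM in sgT33-5, against 0.201, 0 and 0 CPM in NT3, so its fold is set by a few reads. Genes between them did not pass the threshold: SNRNP40 had a log2 fold change of 0.07, PEF1 one of 0.06 and PTP4A2, at the far end, one of 0.10 (adjusted p = 0.533). HCRTR1, whose end overlaps PEF1, averaged 0.466 CPM in sgT33-5 and 0.0414 CPM in NT3 and missed the threshold (adjusted p = 0.088), but was called under the replicate block (0.0154). Within 1 Mb of NKAIN1 and SERINC2, 32 genes were tested, with 6 higher and 0 lower, against 0.396% higher and 0.117% lower among all genes tested. Of the 32, 20 had positive and 12 negative fold changes, with a median of 0.03. In this window the replicate block also called SDC3 higher (adjusted p = 0.0336) and FAM229A lower (0.0147). All 6 genes called in the main fit were higher in sgT33-5 with DMSO too, and none of the 5 tested in LNCaP passed the threshold there. Whether the copy number of this stretch differs between the lines was not tested.

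**Figure D3:**
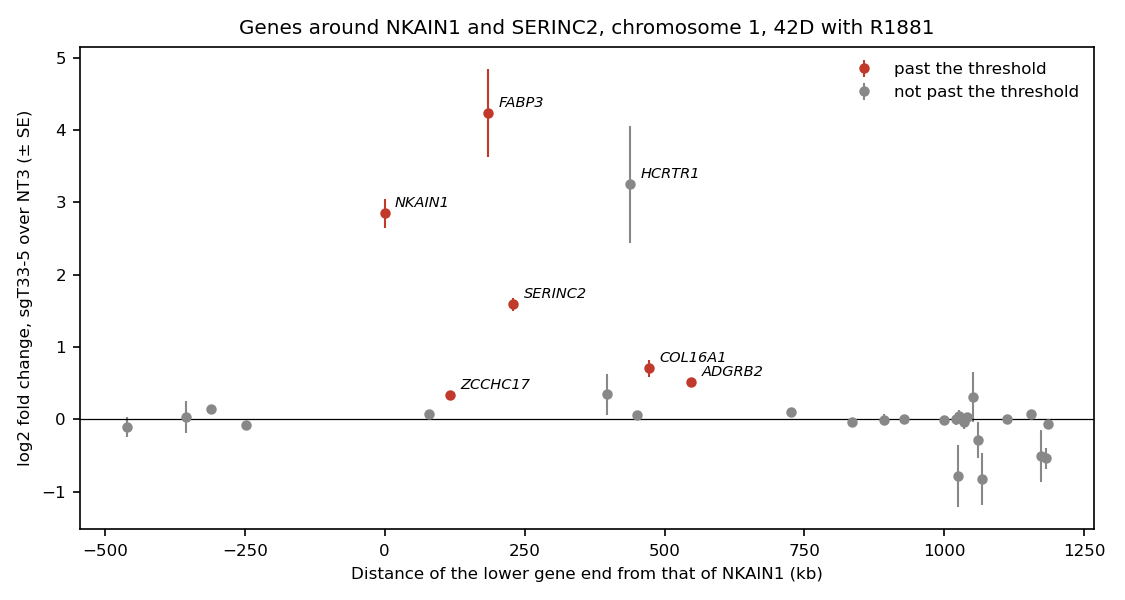
Log2 fold change of sgT33-5 over NT3 (± SE, 3 libraries per group) in 42D with R1881 for the 32 tested genes around NKAIN1 and SERINC2, by distance from NKAIN1 in kb. The 6 called genes (red) start within 547.4 kb of the NKAIN1 start, and the fitted values of FABP3 and HCRTR1 rest on few reads.

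On chromosome 13, RAB20 (110523066 to 110561722), the chromatin protein gene ING1 (110712736 to 110723339) and ENSG00000275880 between them were called. ENSG00000275880 overlaps NAXD, and the strand setting of the counting is not given in the sources used here, so its reads cannot be told apart from those of NAXD. ING1 had 12.4, 10.9 and 11.5 CPM in sgT33-5, against 7.91, 9.12 and 7.64 CPM in NT3 (log2 fold change 0.50, adjusted p = 0.0253). NAXD and CARS2, which lie between them, had log2 fold changes of 0.20 and 0.11 and missed the threshold. The stretch, ING1 and ENSG00000275880 were singled out after their values were seen, and the call of ING1 ended without NT3 replicate 1 or 3 or any 1 sgT33-5 library (adjusted p = 0.0514 to 0.19). Over the genome 13 of the 79 called genes lay within 1 Mb of another called gene. These 13 include the 6 called genes of the chromosome 1 stretch and the 3 of this one. The share of all tested genes with a called gene so near was not computed, so the 13 are a description only. The chromosomes of the called genes ranged from 5 of 265 tested on chromosome 13 (1.89%) to 0 of 1047 on chromosome 19.

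Of the 18 genes lower in sgT33-5, SYT4, a synaptotagmin of vesicle fusion, had 68, 64.1 and 56.1 CPM in sgT33-5, against 121, 112 and 101 CPM in NT3 (log2 fold change -0.82, SE 0.098, adjusted p = 0.00201). TNC, the matrix glycoprotein tenascin C, had 11.5, 14.2 and 11.9 CPM in sgT33-5 and 23.7, 21.6 and 19.4 CPM in NT3 (log2 fold change -0.78, adjusted p = 0.0072). IGFBP5, which binds insulin-like growth factors, had 96, 101 and 83.2 CPM in sgT33-5 and 137, 139 and 126 CPM in NT3 (log2 fold change -0.52, SE 0.066, adjusted p = 0.000374). In none of these genes did the groups overlap, which the naming rule required. The Wnt ligand WNT5A had 84.4, 91.7 and 82.3 CPM in sgT33-5 and 107, 119 and 109 CPM in NT3 (log2 fold change -0.38, adjusted p = 0.00608). The GATA-type repressor TRPS1 fell by 0.40 on the log2 scale (adjusted p = 0.0107) and the adhesion protein KIRREL1 by 0.37 (0.00114). The peroxidase PXDN, which crosslinks collagen IV, fell by 0.70 on the log2 scale (adjusted p = 0.013) and the metalloproteinase inhibitor TIMP3 by 0.63 (0.013). The remaining named genes were PRUNE2 (log2 fold change -0.52), the potassium channel KCNK5 (-0.43), KIAA1217 (-0.40), the aminotransferase AADAT (-0.33) and the connexin GJC1 (-0.29). GOLGA2P7, a golgin pseudogene with near-identical copies and so of uncertain count, had -0.95.

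The calls of SYT4, IGFBP5, WNT5A, TRPS1 and KIRREL1 held in every alternative run. The call of TNC ended without sgT33-5 replicate 1 (adjusted p = 0.0545). That of AADAT ended without sgT33-5 replicate 1 (0.0545) or NT3 replicate 3 (0.0707), and that of GOLGA2P7 without NT3 replicate 1 (0.0685) or sgT33-5 replicate 2 (0.0745) or 3 (0.058). The calls of PXDN (0.0504 to 0.0835 without NT3 replicate 2 or 3 or sgT33-5 replicate 2 or 3) and TIMP3 (0.0528 to 0.112 without NT3 replicate 1 or 2 or sgT33-5 replicate 2 or 3) were ended by 4 libraries each. So was that of KIAA1217 (0.0529 to 0.0791 without NT3 replicate 1 or 3 or sgT33-5 replicate 1 or 2). The call of PRUNE2 ended without any 1 library except sgT33-5 replicate 3 (0.0707 to 0.191). Those of GJC1 (0.058 to 0.267) and KCNK5 (0.0752 to 0.177) ended without any single one of the 6, and that of KCNK5 also with DESeq2 (0.0577) and in a fit of the 6 libraries alone (0.108).

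Of 105 tested genes of an androgen response list, 4 were higher and 0 lower, against 0.396% higher and 0.117% lower among all genes tested, and the list's median log2 fold change was 0.03. The 4 were MAF, the TGF-beta inhibitor PMEPA1, the LIM protein PDLIM5 and the endosomal GTPase RAB4A, the last named after its values were seen. PMEPA1 had 304, 318 and 293 CPM in sgT33-5, against 257, 264 and 252 CPM in NT3 (log2 fold change 0.24, adjusted p = 0.00937). The shifts of PDLIM5 (0.19, adjusted p = 0.0475) and RAB4A (0.17, 0.0418) were small, and each ended without any single one of the 6 libraries (0.126 to 0.169 for PDLIM5, 0.0552 to 0.243 for RAB4A) and in a fit of the 6 alone (0.0748 and 0.102). That of PMEPA1 ended without NT3 replicate 3 (0.0733) or sgT33-5 replicate 2 (0.104). The count for the list was 2 without NT3 replicate 1, NT3 replicate 2 or sgT33-5 replicate 3, and 1 without NT3 replicate 3. Without sgT33-5 replicate 2 it was 1 higher and 1 lower, the lower one being TMPRSS2. With the replicate block it was 17 higher and 1 lower, the lower one again TMPRSS2, and with DESeq2 7 higher and 1 lower. Among all 15403 genes tested the block called 215 higher and 116 lower.

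A second list held the 270 genes (1.74% of 15519) that R1881 raised at least 2-fold in NT3 cells of LNCaP, in libraries outside the comparison. Among all genes tested 0.396% were higher and 0.117% lower. Of 237 tested in 42D, 12 were higher in sgT33-5 and 0 lower, and the median was 0.04. They included the pseudokinase TRIB2, the leucine zipper factor MAF, the dopamine transporter SLC6A3, the phosphatase-like receptor PTPRN2, the guidance factor SEMA3C, CRISPLD2, PIK3AP1, PMEPA1, the prostaglandin receptor PTGER4, USP43 and the unnamed gene ENSG00000287499, several of them named after their values were seen. TRIB2 had 548, 590 and 583 CPM in sgT33-5, against 398, 407 and 385 CPM in NT3 (log2 fold change 0.53, SE 0.046, adjusted p = 7.57e-07). The call of CRISPLD2 ended without any single one of the 6 libraries (0.0596 to 0.267), that of PIK3AP1 without any 1 except NT3 replicate 3 (0.0545 to 0.253), that of PTGER4 without any 1 except NT3 replicate 1 (0.0843 to 0.31), with DESeq2 (0.0604) and in a fit of the 6 alone (0.0535), and that of USP43 without any 1 except sgT33-5 replicate 3 (0.0547 to 0.214). That of SLC6A3 ended without sgT33-5 replicate 2 (0.0559). With the replicate block 34 members were higher and 6 lower, against 215 higher and 116 lower among all 15403 genes tested. The count was 7 without NT3 replicate 1 or 3, 8 without NT3 replicate 2, and 4 higher and 1 lower without sgT33-5 replicate 2. R1881 lowered 112 genes at least 2-fold in LNCaP NT3 (0.722%), and of the 88 tested in 42D, 1 was higher, the lecithin retinol acyltransferase family gene LRATD1 (0.57, adjusted p = 0.0475), and 0 were lower. The call of LRATD1 ended without any 1 library except sgT33-5 replicate 3 (0.0947 to 0.224). The 1 of 88 stands against 0.396% higher among all genes tested, and rests on that call. With the replicate block 2 members of this list were higher and 1 lower, against 215 higher and 116 lower among all 15403 genes tested.

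Among single targets, KLK3 had 343, 356 and 403 CPM in sgT33-5, against 303, 349 and 427 CPM in NT3, so the groups overlapped (log2 fold change 0.03, SE 0.13, adjusted p = 0.975). Its close paralog KLK2, with which it may share reads, had 504, 592 and 726 CPM in sgT33-5 and 451, 590 and 728 CPM in NT3 (0.04, adjusted p = 0.979). FKBP5, a co-chaperone of steroid receptors, had 1100, 1100 and 1060 CPM in sgT33-5 and 964, 970 and 991 CPM in NT3. The FKBP5 groups stood apart, the log2 fold change was 0.16 (SE 0.040, adjusted p = 0.113), and the replicate block (adjusted p = 0.00207) and DESeq2 (0.0131) called it. TMPRSS2, a serine protease, had 494, 572 and 506 CPM in sgT33-5 and 592, 627 and 622 CPM in NT3. Its groups stood apart in the other direction (log2 fold change -0.23, SE 0.057, adjusted p = 0.106), and the replicate block (0.0248), DESeq2 (0.0464) and the fit without sgT33-5 replicate 2 (0.0186) called it. NDRG1, a stress-response gene, had 540, 595 and 657 CPM in sgT33-5 and 476, 425 and 511 CPM in NT3. Its adjusted p was 0.126, or 0.00211 with DESeq2 and 0.0341 without sgT33-5 replicate 1, for a log2 fold change of 0.34. The pioneer factor FOXA1 (0.00), ELL2 (0.01), SLC45A3 (-0.05), SGK1 (-0.09), STEAP4 (-0.23) and CAMKK2 (0.09) also missed the threshold. The homeobox factor HOXB13 (0.14, adjusted p = 0.305) and the Notch ligand JAG1 (0.22, 0.367) missed it too, but were called under the replicate block (0.0198 and 0.0206).

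The promoter sequences of 4 of these genes are shown because they set strongly raised genes beside androgen targets that did not pass the threshold. Each is a RefSeq window of 300 bases on GRCh38.p14 around a transcription start, mostly upstream of it, with capitals marking AGAACA or its reverse complement TGTTCT, the core hexamer of androgen receptor elements.
NKAIN1 (higher; chr1:31239838-31240137, minus strand): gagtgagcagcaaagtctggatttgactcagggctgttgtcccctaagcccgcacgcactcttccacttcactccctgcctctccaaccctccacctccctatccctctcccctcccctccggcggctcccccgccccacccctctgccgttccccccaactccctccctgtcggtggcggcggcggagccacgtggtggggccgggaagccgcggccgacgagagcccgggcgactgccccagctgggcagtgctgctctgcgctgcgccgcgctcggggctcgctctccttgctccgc
UBE2QL1 (higher; chr5:6448609-6448908, plus strand): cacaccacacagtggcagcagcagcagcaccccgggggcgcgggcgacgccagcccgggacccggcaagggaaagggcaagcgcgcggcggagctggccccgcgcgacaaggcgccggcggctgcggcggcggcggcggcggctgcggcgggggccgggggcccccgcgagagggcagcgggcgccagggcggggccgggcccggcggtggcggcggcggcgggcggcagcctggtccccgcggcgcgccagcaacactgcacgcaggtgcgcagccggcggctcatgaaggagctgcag
KLK3 (not called; chr19:50854665-50854964, plus strand): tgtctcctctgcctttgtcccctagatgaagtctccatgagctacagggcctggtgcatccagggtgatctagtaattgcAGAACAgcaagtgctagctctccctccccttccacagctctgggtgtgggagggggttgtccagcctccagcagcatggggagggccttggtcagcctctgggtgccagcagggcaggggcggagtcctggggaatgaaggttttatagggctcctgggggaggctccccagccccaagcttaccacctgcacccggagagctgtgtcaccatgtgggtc
FKBP5 (not called; chr6:35728534-35728833, minus strand, 1 of its starts): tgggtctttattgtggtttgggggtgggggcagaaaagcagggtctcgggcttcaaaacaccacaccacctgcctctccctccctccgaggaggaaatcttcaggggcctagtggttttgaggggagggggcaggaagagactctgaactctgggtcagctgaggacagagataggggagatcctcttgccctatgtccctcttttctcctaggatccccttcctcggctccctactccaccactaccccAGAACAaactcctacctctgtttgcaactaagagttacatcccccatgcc
The windows of KLK3 and FKBP5 hold the hexamer once each, and those of NKAIN1 and UBE2QL1 do not hold these letters. Both strands were searched and motifs did not overlap. The hexamer stands in 14.8% of the 35116 windows in the table and in at least 1 window of 12.6% of 11154 genes tested. Among 59 called genes with a window, it stood in 1 of 45 that were higher and 2 of 14 that were lower. These are matches of letters, not binding sites.

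Genes of axon guidance and cell adhesion, 43 tested, held 6 higher and 0 lower, against 0.396% higher among all genes tested, with a median log2 fold change of 0.13. This list was drawn up with earlier results of these data known. Besides PCDH7, the members were the guidance factor SEMA3C (log2 fold change 0.58, adjusted p = 0.0409), the ephrin EFNB2 (0.45, 0.00649), the contactin CNTN4 (0.43, 0.0152), the neural adhesion molecule NCAM1 (0.42, 0.00299) and SEMA3F (0.29, 0.0492), with CNTN4 and SEMA3F named after their values were seen. NCAM1 had 30.2, 27.4 and 30 CPM in sgT33-5, against 21.7, 20.9 and 22.6 CPM in NT3. EFNB2 had 35.4, 38.5 and 36.2 CPM in sgT33-5 and 26.1, 24.4 and 30.3 CPM in NT3. In both genes every sgT33-5 library lay above every NT3 library. Of the receptors, NRP1 had a log2 fold change of -0.26, NRP2 one of 0.68 at 1.08 CPM in sgT33-5 and 0.671 CPM in NT3, EPHB4 one of 0.02 and PLXNA1 one of 0.04, and none of these 4 was called with or without the replicate block. The ephrin receptor EPHB2 (log2 fold change 0.21, adjusted p = 0.362) was called under the block (0.0477). With the block the list held 8 higher and 1 lower, the lower one being the ephrin receptor EPHA3 (adjusted p = 0.00155). The block called 2.15% of all genes tested. The count was 4 without NT3 replicate 1 or 2, 3 without NT3 replicate 3 or sgT33-5 replicate 1, and 2 without sgT33-5 replicate 2. The calls of PCDH7 and NCAM1 held in every alternative run. That of EFNB2 ended without NT3 replicate 2 (0.0587) or sgT33-5 replicate 2 (0.0559), that of CNTN4 without NT3 replicate 2 or 3 or sgT33-5 replicate 1 or 2 (0.0545 to 0.113), and that of SEMA3C without any 1 library except sgT33-5 replicate 3 (0.0717 to 0.164). That of SEMA3F ended without NT3 replicate 1 or 3 or sgT33-5 replicate 1 or 2 (0.138 to 0.317) and in a fit of the 6 alone (0.0966).

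None of the 21 tested genes of histone H2B ubiquitination, which the title names, passed the threshold in either direction. With 0.513% of all genes tested called, 0 in a list of this size is near the background share. Their log2 fold changes ran from -0.24 to 0.08 with a median of -0.02. RNF20 had 80.4, 85.7 and 87.1 CPM in sgT33-5, against 83.3, 88 and 87.7 CPM in NT3, and its partner RNF40 128, 144 and 143 CPM in sgT33-5 and 125, 132 and 135 CPM in NT3. The deubiquitinase USP22 had 675, 683 and 683 CPM in sgT33-5 and 697, 658 and 673 CPM in NT3. For each of these 3 genes the groups overlapped. Transcripts of the enzymes do not measure the mark.

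Of 36 tested TGF-beta and SMAD genes, PMEPA1 was higher and 0 were lower, against 0.396% higher and 0.117% lower among all genes tested. SMAD4, the shared partner of the SMAD pathway, had a log2 fold change of -0.09, SMAD2 one of 0.02, SMAD3 one of -0.17 and the inhibitor SMAD7 one of 0.10, and the adjusted p of these ran from 0.484 to 0.948. Of 33 androgen receptor cofactors, 46 cell cycle genes, 26 p53 targets, 36 genes of cholesterol and fatty acid synthesis, 32 of the unfolded protein response, 24 of the interferon response, 26 of Notch signalling, 15 of polyamine metabolism and 32 of glycolysis and hypoxia, 0 were called in either direction. With 0.513% of all genes tested called, 0 in each of these lists is near the background share. The replicate block called 2.15% of all genes tested. Under it the 0 held for the unfolded protein response and polyamine lists, but not for the others. With it 4 p53 targets were higher (SPATA18, SESN1, CDKN1A and TP53INP1), and 2 cofactors were higher and 1 lower. It also called 4 genes of cholesterol and fatty acid synthesis higher, 3 Notch genes higher (HES6, HES1 and JAG1), 2 cell cycle genes higher (RRM1 and CDK1), 1 interferon response gene higher (B2M), and 1 glycolysis and hypoxia gene higher (SLC2A3) and 1 lower (VEGFA). Single calls came from the Wnt list (WNT5A, of 33), the IGF axis (IGFBP5, of 12) and the ERBB and MAPK feedback list (PHLDA1, of 24). These stand against 0.513% of all genes tested, and each rests on 1 gene. In the neuroendocrine and neural list of 13 tested genes NCAM1 was higher and SYT4 lower. The androgen repressed list of 20 tested genes held EFNB2 higher and WNT5A lower. With the block, 2 genes were higher and 1 lower in each of the Wnt and androgen repressed lists, and 2 were higher in the ERBB and MAPK list.

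With DMSO, in libraries not shared with the R1881 comparison, 174 genes differed between sgT33-5 and NT3 in 42D (1.13% of 15403), 138 higher (0.896%) and 36 lower (0.234%). Of the 61 genes higher with R1881, 34 were also called higher with DMSO (55.7% of the 61 and 24.6% of the 138), and 55 had the same sign. Of the 18 lower genes, 11 were also called lower (61.1% of the 18 and 30.6% of the 36), and 17 had the same sign. Taken from the DMSO side, 72 of the 138 higher genes had the same sign with R1881, with a median log2 fold change of 0.0156. For the lower genes it was 36 of 36, with a median of -0.263. No gene was called in opposite directions. SERINC2 had 405, 341 and 452 CPM in sgT33-5 with DMSO, against 105, 109 and 103 CPM in NT3 with DMSO. NKAIN1 had 53.4, 49.7 and 68.8 CPM in sgT33-5 with DMSO, against 6.33, 6.23 and 4.23 CPM in NT3 with DMSO. Both genes therefore stood apart between the lines without the androgen too. TRIM33 had 60, 57.8 and 54.7 CPM in sgT33-5 with DMSO, against 85.1, 79 and 88.7 CPM in NT3 with DMSO (log2 fold change -0.55). Without sgT33-5 R1881 replicate 2, 29 genes were called in 1 direction with both treatments, in place of 45. The DMSO count was 71 without NT3 DMSO replicate 1, 77 without NT3 DMSO replicate 3, 75 without sgT33-5 DMSO replicate 1 and 66 without sgT33-5 DMSO replicate 2.

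The difference of the guide effect between R1881 and DMSO was tested directly, in a contrast that shares the 6 R1881 libraries with the main one. It called 19 genes (0.123% of 15403), 4 with a guide effect higher under R1881 (0.026%) and 15 lower (0.0974%). The replicate block called 196 genes, but kept 12 of these 19. RAB20 was one of the 4, with 11.6, 10.1 and 10.5 CPM in sgT33-5 with DMSO and 10.4, 11.1 and 11 CPM in NT3 with DMSO, where the groups overlapped. Its guide effect was 1.24 with R1881 and -0.01 with DMSO on the log2 scale, a difference of 1.25 (SE 0.14, adjusted p = 0.000233) that held in every alternative run. PTPRN2 had 34.4, 39.2 and 37.4 CPM in sgT33-5 with R1881 and 26.6, 27.3 and 24.9 CPM in NT3 with R1881. With DMSO it had 8.29, 7.41 and 7.53 CPM in sgT33-5 and 8.35, 8.65 and 8.46 CPM in NT3. The lines stood well apart with the androgen, and without it the sgT33-5 values lay just under those of NT3 (difference 0.62, adjusted p = 0.0451). SMOC2, a secreted calcium-binding protein, had 32.3, 32.5 and 36.5 CPM in sgT33-5 with R1881 and 26.9, 24.5 and 25.1 CPM in NT3 with R1881. With DMSO the SMOC2 values were 19, 17.9 and 22.7 CPM in sgT33-5 and 23.6, 24.3 and 24.7 CPM in NT3 (difference 0.69, adjusted p = 0.0161). The other gene was the luminal keratin KRT8 (difference 0.34, adjusted p = 0.0422). The zinc finger gene ZBTB43 was higher in sgT33-5 under both treatments, but by less with R1881: it had 68, 66.2 and 56.3 CPM in sgT33-5 with R1881 and 50.3, 47.2 and 42.7 CPM in NT3 with R1881. With DMSO it had 261, 270 and 241 CPM in sgT33-5 and 121, 111 and 122 CPM in NT3 (difference -0.68, adjusted p = 0.00806). UBE2QL1, higher in sgT33-5 with R1881, had at most 0.495 CPM in any 42D library with DMSO, and its difference was not called (0.94, adjusted p = 0.821).

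Mitochondrial genes moved with this contrast. They made up 7 of the 15 genes with a lower guide effect under R1881, and their share of the counts with DMSO was 4.40% ± 0.218 in sgT33-5 and 3.18% ± 0.209 in NT3 (SD, n = 3 each; exact permutation p = 0.1, 2-sided, the smallest possible). With R1881 none of the 15 mitochondrial genes tested was called. With these genes left out, an alternative added after seeing the data, 5 genes were called. The main comparison then had 89 calls. Without single libraries the count of 19 ran from 5 to 92: 5 without NT3 R1881 replicate 2 or 3, 8 without sgT33-5 DMSO replicate 1 or 2 or sgT33-5 R1881 replicate 2, 9 without NT3 DMSO replicate 1, 42 without NT3 DMSO replicate 2, 66 without sgT33-5 DMSO replicate 3 and 92 without NT3 R1881 replicate 1. The call of ZBTB43 ended without NT3 R1881 replicate 2 (adjusted p = 0.0581). That of SMOC2 ended without NT3 R1881 replicate 2 or 3 or sgT33-5 DMSO replicate 1 or 2 (0.0512 to 0.0689). Those of PTPRN2 and KRT8 ended without 9 libraries each, taken out in turn (0.0553 to 0.166 for PTPRN2, 0.0511 to 0.161 for KRT8) and without mitochondrial genes (0.0676 for each). Under R1881 alone, the guide comparison of ZBTB43 ended without sgT33-5 replicate 2 (0.0514), that of SMOC2 ended without NT3 replicate 2 (0.101) or 3 (0.0815) or sgT33-5 replicate 3 (0.0835), and that of PTPRN2 held in every alternative run.

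**Figure D4:**
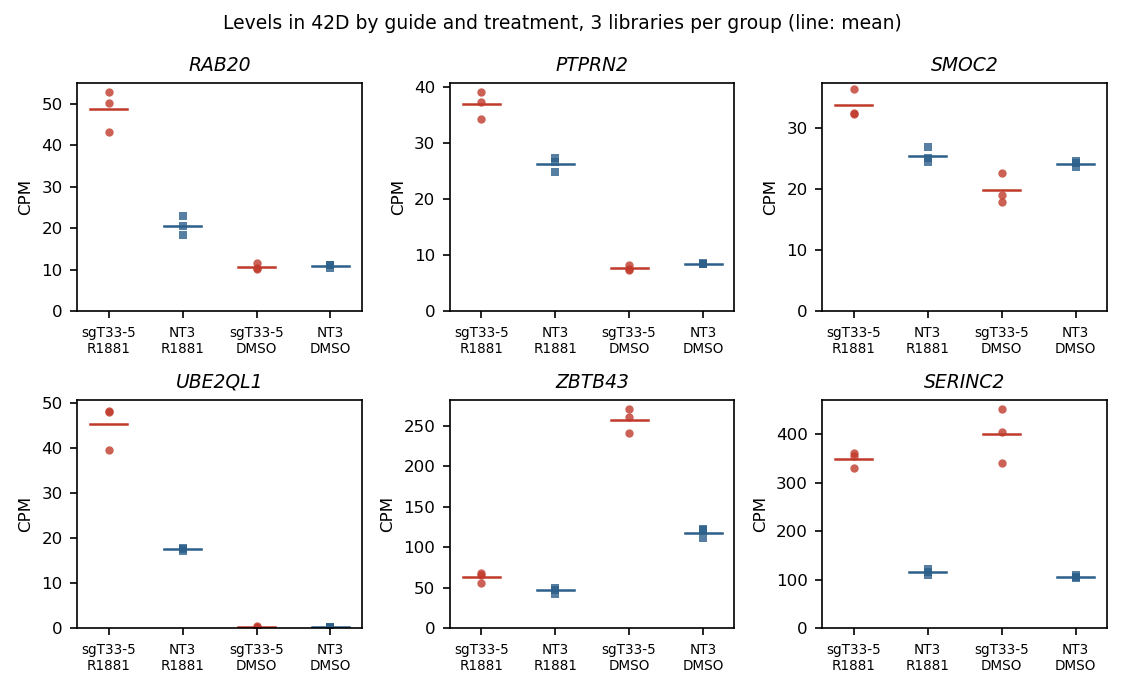
Levels (CPM, linear axes from 0) of 6 genes in 42D by guide line and treatment, with 1 point per library (sgT33-5 red circles, NT3 blue squares) and a line at the mean of 3. RAB20 and PTPRN2 separate the lines upward with R1881, and ZBTB43 and SERINC2 do so with both treatments.

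In LNCaP with R1881 the same guide name gave 472 calls (3.04% of 15519), 152 higher and 320 lower. Of the 61 genes higher in 42D, 5 were also higher in LNCaP (8.2% of the 61 and 3.29% of the 152) and 7 were lower there. LNCaP tested 54 of the 61, and 25 of these had the same sign, with a median log2 fold change of -0.017. Of the 18 lower genes, 4 were also lower in LNCaP (22.2% of the 18 and 1.25% of the 320). There 17 of the 18 were tested and 14 had the same sign. The genes called in 1 direction in 42D under both treatments and in LNCaP with R1881 were 6. TRIM33, WNT5A and SYT4 were lower, and PCDH7, ZBTB43 and ENSG00000287499 higher. SYT4 had a log2 fold change of -1.50 in LNCaP, WNT5A one of -0.68 and PCDH7 one of 2.81. The call of ENSG00000287499 in 42D ended without any 1 library except sgT33-5 replicate 1 (adjusted p = 0.0752 to 0.214), and that of ZBTB43 without sgT33-5 replicate 2 (0.0514). The LNCaP count was 201 without NT3 replicate 1, 223 without NT3 replicate 2, 198 without sgT33-5 replicate 1, a library with a low mitochondrial share, 275 without sgT33-5 replicate 2 and 194 in a fit of the 6 libraries alone.

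The guide effect with R1881 differed between 42D and LNCaP in 218 of 16564 genes (1.32%), of which 191 had a higher log2 fold change in 42D (1.15%) and 27 a lower one (0.163%). TRIM33 itself fell less in 42D (-0.52) than in LNCaP (-1.07), a difference of 0.57 (SE 0.097, adjusted p = 0.00054). Among androgen targets, KLK3 had log2 fold changes of 0.03 in 42D and -1.40 in LNCaP, a difference of 1.44 (SE 0.26, adjusted p = 0.00211). IGF1R, the insulin-like growth factor receptor, had 26.5, 25.5 and 25.8 CPM in sgT33-5 of 42D and 28.7, 27.7 and 30.6 CPM in NT3 of 42D (log2 fold change -0.16, adjusted p = 0.621). Its log2 fold change in LNCaP was -1.84, and the difference was 1.69 (SE 0.18, adjusted p = 2.18e-07). The differences of FKBP5 (0.49, adjusted p = 0.00384), JAG1 (1.22, 0.000574) and TRPM8 (1.10, 0.000126) had the same direction. Those of KLK2 (-0.20, adjusted p = 0.924) and ELL2 (0.31, 0.174) were not called, and KLK2 had a log2 fold change of 0.26 in LNCaP. MAF was higher in sgT33-5 of 42D (0.74) and lower in that of LNCaP (-0.68), a difference of 1.43 (adjusted p = 0.000419). Of the androgen response list, 4 of 105 tested genes were higher and 0 lower in 42D, with a median log2 fold change of 0.03, against 0 higher, 39 lower and a median of -0.23 in LNCaP. The background in LNCaP was 0.979% higher and 2.06% lower.

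In the other direction, the phospholipase PLA2G2A had 130, 146 and 95.6 CPM in sgT33-5 of 42D and 89.8, 88.9 and 73.5 CPM in NT3 of 42D, a log2 fold change of 0.56 that missed the threshold (adjusted p = 0.45; 0.000152 under the replicate block). The difference from LNCaP, where the log2 fold change was larger, was -1.43 (SE 0.18, adjusted p = 2.41e-05). CAMK2N1, an inhibitor of the kinase CaMKII, had log2 fold changes of 0.15 in 42D and 1.78 in LNCaP (difference -1.62, adjusted p = 1.42e-08). The count of 218 was 142 without sgT33-5 replicate 2 of 42D, 142 without NT3 replicate 1 of LNCaP, 135 without NT3 replicate 2 of LNCaP and 140 in a fit of the libraries compared alone.

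**Figure D5:**
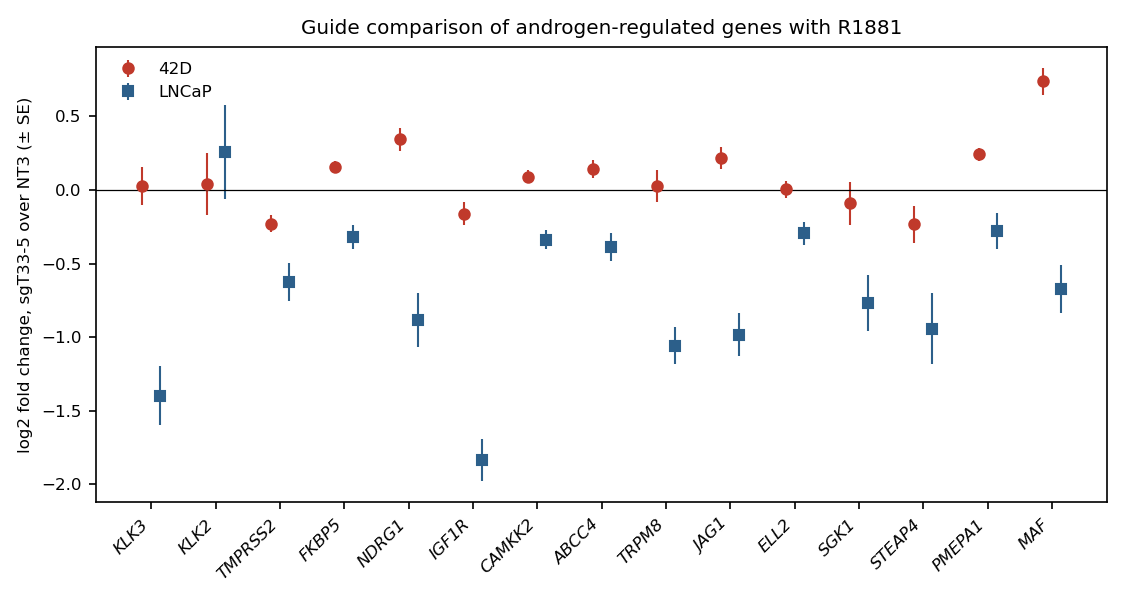
Log2 fold change of sgT33-5 over NT3 with R1881 (± SE, 3 libraries per group) for androgen-regulated genes, in 42D (red circles) and LNCaP (blue squares). KLK3, IGF1R and TRPM8 lie near 0 in 42D and at -1.40, -1.84 and -1.06 in LNCaP.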

How the data were processed

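RNA was sequenced as 51 bp paired-end reads from a stranded poly(A) library, per the labels. The authors deposited raw counts per gene, with reads trimmed with cutadapt and aligned with HISAT2 2.1.0 to GRCh38 (hg38), per the submitters' processing notes. The counter and its strand setting are not given in the sources used here.

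The deposited counts were filtered with edgeR 4.0.16 in R 4.3.3, scaled by TMM and tested with its quasi-likelihood F test, with 1 fit over the 42D libraries, 1 over the LNCaP libraries and 1 over all 36 for the difference between cell lines. P-values were adjusted by Benjamini-Hochberg over all genes tested, with a threshold of 0.05. Standard errors are the log2 fold change over the square root of F. Named genes were the 15 highest and 15 lowest called genes with a mean of at least 5 CPM and groups without overlap, up to 3 called per direction from each list, up to 5 per test of a difference, and a fixed panel. The members and lists were chosen with earlier results of these data known, and the genomic windows after values were seen. Library totals were 15170440 to 16674859 counts, which limits precision for genes of few reads. The tests were tried on simulated data first. Alternatives were DESeq2 1.42.0, other size factors, no filter, a replicate block, the compared libraries alone, each library left out and, added later, mitochondrial genes left out.

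Replicate numbers are shared between groups by the labels. Deviations of same-numbered R1881 libraries of 42D correlated at 0.19, 0.186 and 0.31, and those of differently numbered ones at -0.0135 or below. The main fits nevertheless hold no replicate term. For that comparison the blocked value is given where it changes the call of a gene described or the calls counted for a list. Values of a few genes are not reported here.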

Additional observations from a re-analysis of the deposited data

Results flagged for a closer look

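Groups of 3 libraries are too small for a test of single outlying samples. The results below were picked because a test of the difference itself passed the threshold (edgeR, adjusted p below 0.05).

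Between 42D and LNCaP, the log2 fold change of sgT33-5 over NT3 with R1881 was higher in 42D for TRIM33 (difference 0.57) and its family member TRIM24 (0.46). It was also higher for the androgen-regulated genes KLK3 (1.44), IGF1R (1.69), NDRG1 (1.24), JAG1 (1.22), TRPM8 (1.10), MAF (1.43), PDLIM5 (0.57), ABCC4 (0.54), FKBP5 (0.49), CAMKK2 (0.44) and KRT8 (0.44). Genes called higher in 42D with a larger effect there were NKAIN1 (4.17), GRIN3A (3.33), LRRTM4 (1.67), SERINC2 (1.52), GNAI1 (0.92), RAB20 (0.70) and EFNB2 (0.70), and the transcription factors SOX9 (1.78) and SALL2 (1.78) also differed. GRIN3A was too scarce in LNCaP to be tested there alone. LRRTM4 averaged 0.422 CPM in sgT33-5 and 0.785 CPM in NT3 of LNCaP (log2 fold change -0.88, adjusted p = 0.229). The LNCaP log2 fold change of NKAIN1 was -1.31 (adjusted p = 0.341). The sizes of these differences are therefore imprecise. The effect was lower in 42D for CAMK2N1 (-1.62), the potassium channel KCNJ3 (-1.87), the nuclear receptor NR2F1 (-1.96), PLA2G2A (-1.43) and RADX (-1.36). The difference of ABCC4 was lost without any of 7 single libraries (adjusted p = 0.0547 to 0.102), that of EFNB2 without any of 4 (0.0516 to 0.0644), that of LRRTM4 without LNCaP NT3 replicate 2 (0.101) or LNCaP sgT33-5 replicate 2 (0.0909), and that of NDRG1 in a fit of the compared libraries alone (0.0628). That of GRIN3A was lost without LNCaP NT3 replicate 1 (0.0648) or in a fit of the compared libraries alone (0.0542), and that of KRT8 without 42D NT3 replicate 2 (0.0521), LNCaP NT3 replicate 2 (0.073) or LNCaP sgT33-5 replicate 3 (0.0561) or in the fit of the compared libraries (0.0507).

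Between R1881 and DMSO in 42D, the guide effect was higher with R1881 for RAB20 (difference 1.25), SMOC2 (0.69), PTPRN2 (0.62) and KRT8 (0.34). All had positive log2 fold changes with R1881, and with DMSO these were -0.01, -0.29, -0.13 and -0.15. The guide effect was lower with R1881 for FAM229A (-1.25), which overlaps TSSK3, RNF207 (-1.0), the GABA receptor subunit GABBR1 (-0.86), the taurine synthesis enzyme CSAD (-0.82), the mitochondrial gene MT-ND4L (-0.76) and ZBTB43 (-0.68). ZBTB43 was positive under both treatments. The others changed sign from DMSO to R1881: FAM229A from 0.71 to -0.54, RNF207 from 0.56 to -0.44, GABBR1 from 0.40 to -0.46, CSAD from 0.55 to -0.26 and MT-ND4L from 0.55 to -0.21. Leaving out single libraries in turn ended the call of CSAD for 10 libraries (adjusted p = 0.0521 to 0.189), of GABBR1 for 9 (0.082 to 0.181), of RNF207 for 8 (0.0862 to 0.161), of FAM229A for 6 (0.0517 to 0.085) and of MT-ND4L for 3 (0.085 to 0.118). With mitochondrial genes left out, CSAD (0.0739), GABBR1 (0.0739) and RNF207 (0.0676) were not called, and under the replicate block MT-ND4L was not (0.0805). The part of the mitochondrial share in these differences was not tested beyond leaving those genes out. In the R1881 comparison alone, KRT8, FAM229A, GABBR1 and RNF207 missed the threshold in the main fit. The replicate block called KRT8 higher there (adjusted p = 0.00431), and FAM229A (0.0147), GABBR1 (0.0241) and RNF207 (0.043) lower.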

How the results depend on the processing

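Among the genes followed through the alternatives, none had opposite signs in the main fit and an alternative where either called it. That check left out genes called in neither, so fold changes near 0 could change sign. With no filter on low counts, the guide effect in 42D gave 222 calls with R1881, 438 with DMSO and 168 for their difference, the one in LNCaP gave 743 and the difference between lines 365. With the replicate block these were 331, 665, 196, 1264 and 790. The block kept 12 of the 19 calls for the difference between treatments and 78 of the 79 with R1881. It kept 174 of 174 with DMSO, 472 of 472 in LNCaP and 218 of 218 between lines. Same-numbered DMSO libraries of 42D correlated at 0.0985, 0.169 and 0.26, and differently numbered ones at 0.0153 or below. In LNCaP with R1881 the same-numbered values were 0.212, 0.296 and 0.384, and the others 0.0014 or below. The pattern was thus shared, but blocked values of single genes are not given for the DMSO comparison. With the block, genes called in 1 direction with R1881 and DMSO were 132, and in 42D and LNCaP 43. With no filter they were 96 and 19. DESeq2 gave 70 calls for the difference between treatments, and leaving out mitochondrial genes 5. Fits of the compared libraries alone gave 194 calls in LNCaP and 140 for the difference between lines. Leaving out 1 library at a time gave 43 to 74 calls with R1881, 66 to 244 with DMSO, 5 to 92 for their difference, 198 to 497 in LNCaP, 135 to 246 for the difference between lines, 29 to 42 shared with DMSO and 6 to 9 shared with LNCaP. The causes were not tested. Of the 79 calls, 34 held under every alternative. Genes of few reads, such as FABP3, are limited by depth.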
